A study of Mus musculus with 13 samples.

Results

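Oxidative phosphorylation genes were examined in the hippocampus of amyloid-bearing mice whose blood-forming lineage had or lacked a Cre recombinase directed at Lpcat3. Genes were taken by symbol: the mitochondrially encoded mt-Nd, mt-Co, mt-Atp and mt-Cytb genes, the nuclear Nduf, Uqcr, Cox4 to Cox8 and Atp5 families, and Sdha to Sdhd. Of 120 genes that matched among the 56980 counted, 9 with pseudogene names and 12 with a mean count under 10 were left out, so that 99 remained, 11 encoded in mitochondrial DNA and 88 in the nucleus. They comprised 42 subunits of complex I with 8 of its assembly factors, 4 subunits of complex II, 9 of complex III, 18 genes of complex IV and 18 genes of complex V. All 99 passed the filter on low counts.

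The control group held 6 samples labelled AppNL-G-F; Lpcat3 f/f, and the knockout group 7 samples whose label adds vav1-CRE to that genotype. All mice were male and 9 months old, all carried the amyloid precursor protein knock-in and the floxed Lpcat3 alleles, and all received tamoxifen by gavage at 0.2 mg per g body weight from a 20 mg/ml solution. Lpcat3 encodes an enzyme that puts arachidonic acid into membrane phospholipids. The vav1 promoter drives Cre in blood-forming cells and their descendants, microglia among them, whereas the RNA came from whole hippocampus, in which neurons and other glia supply most transcripts. The labels do not say whether Cre activity depended on tamoxifen, or whether each sample was a separate mouse, so p-values here speak of the spread among these libraries, which may be technical.

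Oxidative phosphorylation moves electrons from NADH and succinate through complexes I to IV to oxygen, and ATP synthase, complex V, uses the proton gradient that complexes I, III and IV build. The proteins come from both genomes: mitochondrial DNA encodes some core subunits of complexes I, III, IV and V. The other subunits of these, the many small accessory ones among them, and every subunit of complex II are nuclear. Neurons depend on the pathway to pay for ion pumping and synaptic transmission.

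Total counts ran from 12159941 to 18322559 per library. Lpcat3 had 24.7 to 30.3 CPM (counts normalized to library size with TMM factors) in controls and 17.3 to 24.4 in knockouts, with no overlap, a log2 fold change of -0.45 and an edgeR adjusted p of 0.096 (DESeq2 adjusted p = 0.0020). Sums over marker lists, here and below, are CPM scaled by library totals without TMM factors. Summed neuronal markers were at 12170 to 13160 CPM in controls and 12310 to 13620 in knockouts. Choroid plexus markers varied widely within both groups, from 416 to 6088 and from 355 to 10250 CPM. The sample numbers fell into 3 runs of unstated meaning: 3283 to 3288 with 5 knockouts and 1 control, 3296 to 3300 with 1 knockout and 3 controls, and 4301 to 4307 with 1 knockout and 2 controls.

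The 13 mitochondrial mRNAs are cut from long transcripts of the same circular genome, and stretches of that genome have been copied into nuclear chromosomes. Reads from a stretch with such a copy can match more than a single place, so the start of a pair of mitochondrial coding sequences is shown beside the most similar annotated nuclear transcript, with capitals at the positions where gene and copy differ. Sequences are from GENCODE M21 (GRCm38), 5′ to 3′, and cover bases 1 to 60. Gm28661 and Gm28438 are both annotated on chromosome 1.
mt-Co2: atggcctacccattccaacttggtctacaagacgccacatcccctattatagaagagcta
Gm28661: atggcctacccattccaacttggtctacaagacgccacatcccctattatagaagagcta
mt-Nd3: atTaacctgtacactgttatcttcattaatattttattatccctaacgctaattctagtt
Gm28438: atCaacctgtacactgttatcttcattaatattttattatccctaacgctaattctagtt
Over the 681 aligned bases mt-Co2 and Gm28661 had 0 mismatches, and over 345 aligned bases mt-Nd3 and Gm28438 had 1.

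Counts of the mitochondrial mRNAs were set beside how much of each sequence another annotated transcript also holds, measured as the percent of its 50-base windows found elsewhere. The mRNAs mt-Nd1, mt-Cytb and mt-Nd6 had 0% shared windows and mean counts of 21708, 36549 and 6990 per library. By contrast mt-Co2 (all windows shared), mt-Co3 (99.9%), mt-Atp6 (99.5%) and mt-Nd3 (98.0%) had mean counts of 244.9, 354.4, 338.2 and 36.8. The subunits mt-Co1 and mt-Co2 sit in the same enzyme and derive from the same strand, yet mt-Co1, with 51.1% shared windows, had a mean count of 54061, and mt-Nd4, with 62.2% shared, 18448. The nuclear transcript Gm28661 was itself counted at 79 to 138 reads per library and Gm28438 at 164 to 394. Of the mRNAs under the count minimum, mt-Nd4l (98.8% shared) had 2 to 12 reads and mt-Atp8, whose mRNA overlaps that of mt-Atp6 and which had 0% shared windows in annotated transcripts, had 3 to 10. The part of the copies in these counts was not tested. How multimapped and overlapping reads were counted is not given in the sources used here, so levels of mt-Co2, mt-Co3, mt-Atp6, mt-Nd3, mt-Nd4l and mt-Atp8 are uncertain and are not compared with those of other genes. For mt-Nd6, the mRNA encoded on the other strand, reads from the opposite strand cannot be told apart, because the strand setting is also not given.

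**Figure D1:**
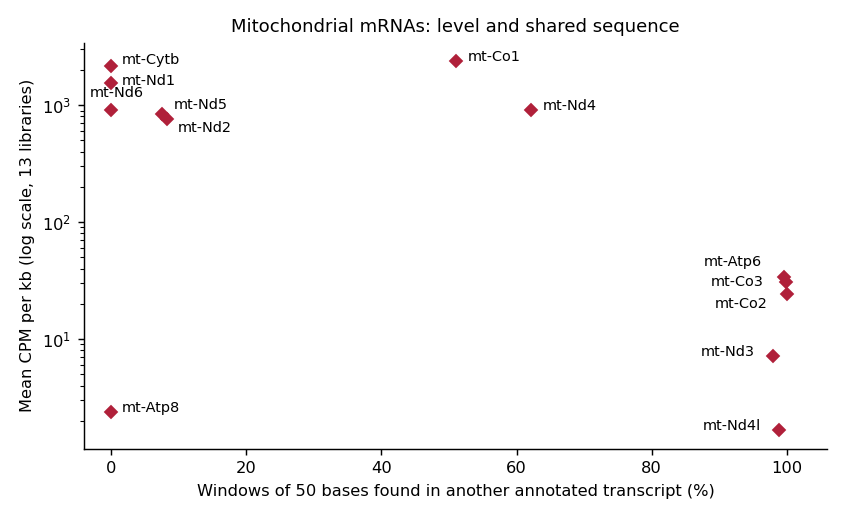
Mean CPM per kb of mRNA over 13 libraries (scaled by library totals, log axis) against the percent of 50-base windows found in another annotated transcript, a point for each of the 13 mitochondrial mRNAs. The 5 mRNAs with 98.0% or more shared windows and mt-Atp8 lie far below the other 7.

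Mitochondrial mRNAs together made up a smaller part of the library in knockouts than in controls. The 13 mRNAs held 1.12% of counts in the lowest control, 1.28% at the median and 1.32% in the highest. In knockouts the lowest, median and highest values were 1.02%, 1.13% and 1.17%. Of 6 controls, 5 lay above every knockout, and the exception was control replicate 3, so the ranges overlapped. Group means were 1.247% ± 0.0793 (SD, n = 6) and 1.11% ± 0.0596 (SD, n = 7). Within the number runs the difference was -0.066 percentage points in 3283 to 3288, -0.063 in 3296 to 3300 and -0.273 in 4301 to 4307. Mitochondrial ribosomal RNA, which the same genome encodes and which is no member, held 0.526% ± 0.0739 of counts in controls and 0.452% ± 0.0501 in knockouts. In bulk tissue, fewer cells of a type and less RNA per cell cannot be told apart.

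The 88 nuclear members also held less of each knockout library. Their share was 0.811% of counts in the lowest control, 0.846% at the median and 0.884% in the highest, against 0.775%, 0.790% and 0.825% in knockouts. Of 7 knockouts, 6 lay below every control, and the exception was knockout replicate 4. Group means were 0.848% ± 0.0261 (SD, n = 6) and 0.794% ± 0.0174 (SD, n = 7), with differences of -0.017, -0.053 and -0.066 percentage points in the 3 runs in the order above.

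The balance between the genomes differed by about the spread within a group. The log2 ratio of mitochondrial over nuclear counts, which does not depend on library scaling, was 0.554 ± 0.0721 in controls and 0.488 ± 0.0594 in knockouts, a difference of -0.067. Controls ran from 0.419 through a median of 0.564 to 0.616 and knockouts from 0.390 through 0.504 to 0.560, so the ranges overlapped widely. The difference was -0.053, 0.020 and -0.224 in the 3 runs, and without samples 4301 to 4307 it was -0.021. As a sum over chosen genes it was given no test.

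**Figure D2:**
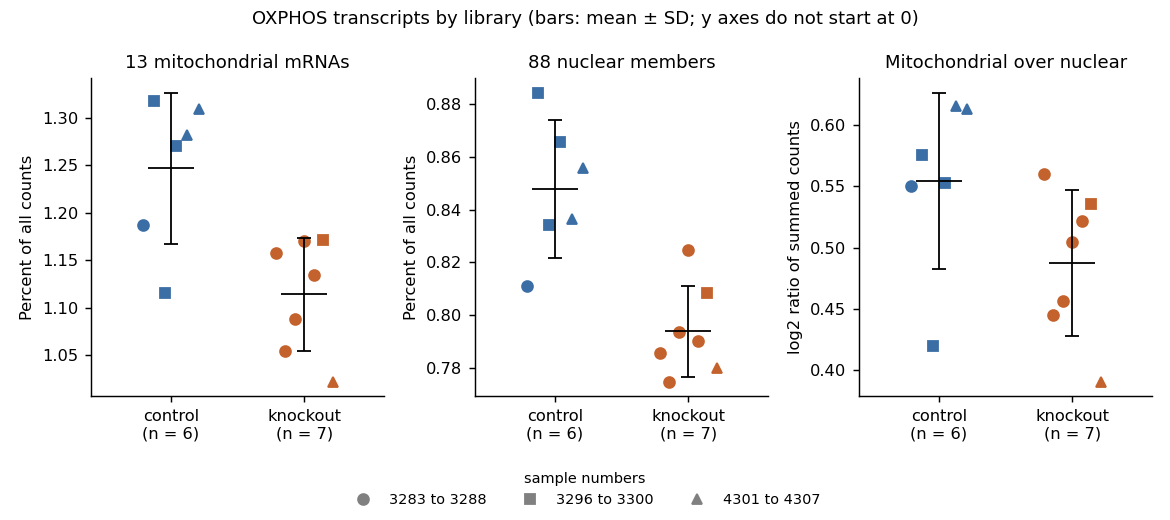
Percent of all counts from the 13 mitochondrial mRNAs and from the 88 nuclear members, and the log2 ratio of the former over the latter, for each library by group; symbols give the run of sample numbers, and bars the mean and SD. Mitochondrial shares of 5 of 6 controls exceed all 7 knockouts, and the log2 ratios overlap.

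Gene by gene, no oxidative phosphorylation gene passed the test, but nearly all lay on the lower side. In edgeR's quasi-likelihood test, 0 of 99 had an adjusted p under 0.05, against 4 of 17549 genes tested (0.0228%). At an unadjusted p under 0.05, 35 of 99 were lower in the knockout and 1 was higher, against 7.25% and 5.23% of all genes tested. The fold change was negative for 95 of 99 members and for 51.3% of all genes. The median log2 fold change was -0.150 over the members, with a range from -0.79 to 0.15, and -0.004 over all genes. In 0 of 99 members were the ranges of CPM free of overlap with the knockout below, against 0.274% of all genes. The count of 35 became 53 without knockout replicate 4 and 23 without control replicate 2.

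With DESeq2, 5 of 99 members had an adjusted p under 0.05 and were lower in the knockout, against 0.57% of all genes. They were Sdhb, mt-Nd1, Atp5f1, mt-Cytb and Ndufv2, each from a different complex except mt-Nd1 and Ndufv2. With the choroid plexus score as a covariate in edgeR, Sdhb alone passed, against 0.331% of all genes lower. With the number run as a term 37 of 99 were lower at an unadjusted p under 0.05 (4.54% of all genes), and without samples 4301 to 4307 the count was 59 of 99 (7.37%). Microglial markers lay mostly on the same side, with 10 of 14 negative and a median log2 fold change of -0.103. Their summed levels were 1059 to 1256 CPM in controls and 1005 to 1163 in knockouts. In the 3 runs of sample numbers their medians were 0.066, -0.068 and -0.147, with 5, 9 and 10 of 14 negative. After removal of trends with mRNA length and GC content, described below, the microglial median was -0.033. Of 12 astrocyte markers 9 were negative, with a median of -0.045, and of -0.051 with the trends removed. At an unadjusted p under 0.05, 3 of 12 were lower as counted (7.25% of all genes). With the trends removed 4 of 12 were lower (4.28%). In the 3 runs the astrocyte medians were -0.044, -0.048 and 0.043. Endothelial markers had a median of -0.005. All 12 oligodendrocyte and myelin markers were negative, with a median of -0.101 and sums of 6326 to 8190 and 6123 to 7966 CPM. Within the 3 runs of sample numbers this was not so. Their medians there were -0.005, 0.009 and 0.025, with 6, 6 and 5 of 12 negative. With the myelin score as a covariate the median of the 88 nuclear members was -0.176, against -0.143 without it, and the count of 35 became 30, while the part of microglial RNA was not tested. The nuclear median of -0.143 was -0.093 without control replicate 2 and -0.217 without samples 4301 to 4307.

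All complexes had medians below that of all genes, and they differed little among themselves. Over all libraries, the median log2 fold change of nuclear members was -0.138 for 36 subunits of complex I and -0.093 for its 8 assembly factors. It was -0.164 for complex II, -0.138 for 8 of complex III, -0.154 for 15 of complex IV and -0.161 for 17 of complex V. The 11 mitochondrial members had a median of -0.206, and the 6 of complex I had -0.156. For the 3 of complex IV the median of -0.28 is the value of mt-Co3, whose level is uncertain, as is that of mt-Co2. The third, the well-counted mt-Co1, had -0.08. At an unadjusted edgeR p under 0.05, 9 of 11 mitochondrial and 26 of 88 nuclear members were lower, against 7.25% of all genes. The 9 include mt-Co2, mt-Co3 and mt-Atp6, whose levels are uncertain. The 5 mitochondrial mRNAs with under 10% shared windows had the same median of -0.206, and 5 of 5 were lower at that p. They include mt-Nd6, whose reads cannot be told apart from those of the opposite strand. The differences between complexes and between genomes were not tested.

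**Figure D3:**
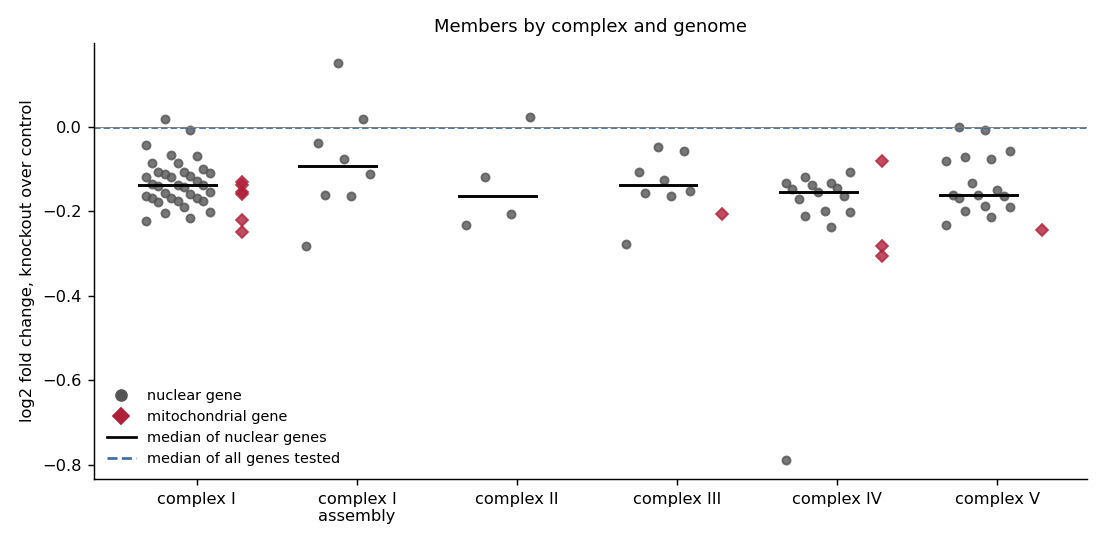
Log2 fold change of each member in knockout over control, by complex; circles are nuclear and diamonds mitochondrial genes, the black bars are medians of nuclear genes, and the dashed line is the median of all genes tested (-0.004). Of 99 points, 95 lie below 0, and the lowest, at -0.79, is Cox6a2, which had under 3 CPM in every library.

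All 11 mitochondrial members had a negative fold change. The complex III subunit mt-Cytb, the only part of that complex made in the organelle, had 2384, 2695 and 2962 CPM at the lowest, median and highest control and 2091, 2350 and 2487 in knockouts. Its log2 fold change was -0.21 (SE 0.055, edgeR adjusted p = 0.16, DESeq2 adjusted p = 0.029), and 5 of 6 controls exceeded every knockout. The complex I subunit mt-Nd1 had 1437, 1638 and 1796 CPM in controls and 1195, 1371 and 1559 in knockouts, with 6 of 7 knockouts below every control. Its log2 fold change was -0.25 (SE 0.064, edgeR adjusted p = 0.14, DESeq2 adjusted p = 0.022). Both genes were lower in each run of numbers, by -0.132, -0.068 and -0.447 for mt-Cytb and -0.121, -0.251 and -0.463 for mt-Nd1.

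The other complex I mRNAs of the organelle, mt-Nd2, mt-Nd4, mt-Nd5 and mt-Nd6, had log2 fold changes of -0.22, -0.15, -0.13 and -0.14, and mt-Nd3, at 1.6 to 3.8 CPM, had -0.16. The smallest of the well-counted differences was that of mt-Co1, the catalytic subunit of cytochrome c oxidase. It had 3466, 3770 and 4241 CPM in controls and 3452, 3573 and 3836 in knockouts, which overlapped, and its log2 fold change was -0.08 (SE 0.049, edgeR adjusted p = 0.53). The counts of mt-Co2, mt-Co3 and mt-Atp6, which are mostly shared with nuclear copies, gave -0.31, -0.28 and -0.24. Apart from mt-Nd6, encoded on the other strand, these mRNAs are cut from the same long transcript. Their counts are thus not independent measurements of the organelle's RNA.

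Complex II, succinate dehydrogenase, is the only complex with no mitochondrial gene, and its 4 subunits had fold changes of unlike size, though differences between them were not tested. Sdhb, the iron-sulphur subunit, had 95.7, 102.5 and 114 CPM at the lowest, median and highest control and 83.7, 86.4 and 98.0 in knockouts. Each of the 7 knockouts was under the median of controls, and 5 of 6 controls lay above every knockout. Its log2 fold change was -0.23 (SE 0.050, edgeR adjusted p = 0.097, DESeq2 adjusted p = 0.0081), and it was lower in each run, by -0.178, -0.181 and -0.321. The edgeR value with the choroid plexus covariate was an adjusted p of 0.024.

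Sdha, the flavoprotein that binds succinate and pairs with Sdhb in the enzyme, had 585, 616 and 647 CPM in controls and 593, 629.5 and 656 in knockouts. Its ranges nearly coincided, with a log2 fold change of 0.02 (SE 0.039, edgeR adjusted p = 0.87). The membrane anchors Sdhc and Sdhd had log2 fold changes of -0.21 (SE 0.074) and -0.12 (SE 0.059). The difference for Sdhc lay in samples 4301 to 4307, at -0.407 there and 0.001 and -0.007 in the other runs. Per kb of mRNA, Sdha stood at 215 CPM and Sdhb, Sdhd and Sdhc at 83.7, 71.1 and 23.3. The transcripts taken for these genes had 2900, 1142, 1231 and 3171 bases, in that order.

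**Figure D4:**
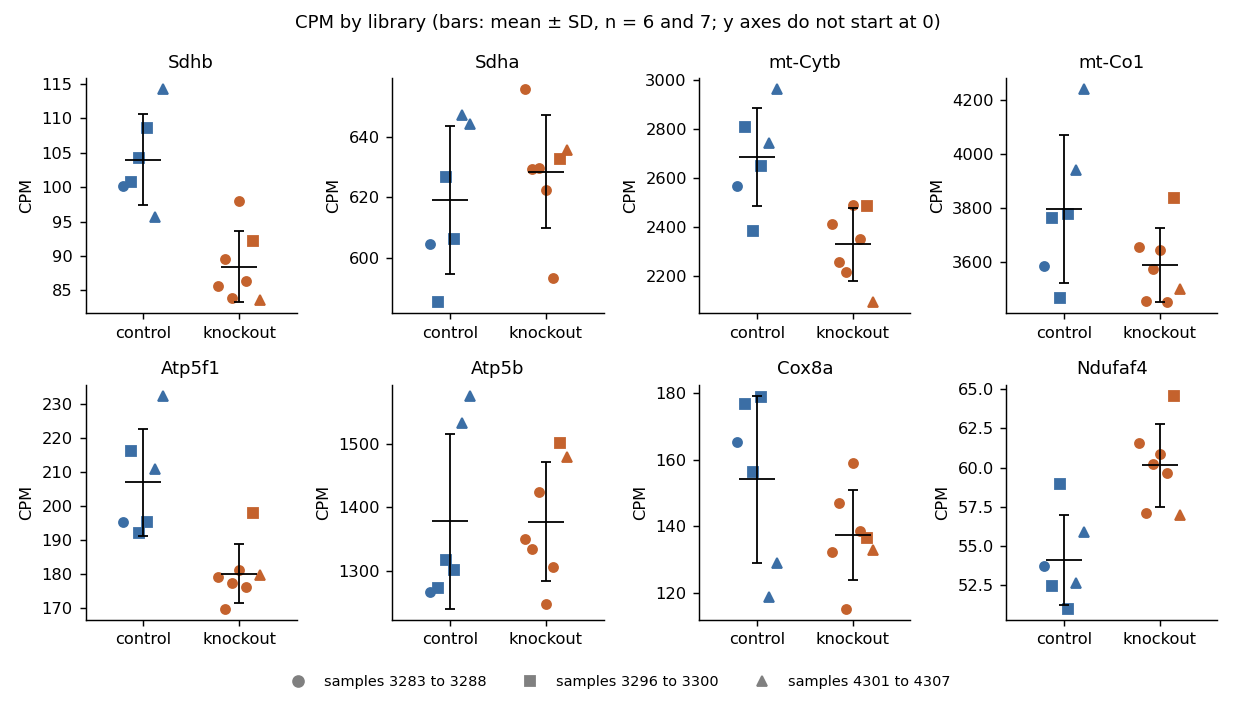
CPM of 8 members in every library by group, with symbols for the run of sample numbers and bars for the mean and SD. Sdhb, mt-Cytb and Atp5f1 are lower in most knockouts, Sdha and Atp5b overlap, Cox8a is low in both controls of 4301 to 4307, and Ndufaf4 is higher in most knockouts.

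Among the nuclear subunits of complex I those with the smallest p were Ndufv2, Ndufb5 and Ndufb10. Ndufv2, an iron-sulphur protein of the NADH-binding module, had 104, 113 and 135 CPM in controls and 92.6, 97.2 and 110 in knockouts, a log2 fold change of -0.22 (SE 0.059, edgeR adjusted p = 0.15, DESeq2 adjusted p = 0.048). No knockout reached the median of controls, though the ranges overlapped. The accessory membrane-arm subunits Ndufb5 and Ndufb10 had log2 fold changes of -0.22 and -0.20. Ndufv1, which binds NADH beside Ndufv2, had -0.07 (SE 0.070), and Ndufs1, the largest core subunit, had 202.8, 208.5 and 220 CPM in controls and 199, 209 and 223 in knockouts. Its log2 fold change was 0.02 (SE 0.038, edgeR adjusted p = 0.89).

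Ndufaf4, a complex I assembly factor, was the only member higher at an unadjusted p under 0.05. It had 51.0, 53.2 and 59.0 CPM in controls and 57.0, 60.3 and 64.6 in knockouts, with every knockout above the median of controls and some overlap of the ranges. Its log2 fold change was 0.15 (SE 0.047, edgeR adjusted p = 0.21, DESeq2 adjusted p = 0.081), positive in each run at 0.156, 0.256 and 0.070. Another assembly factor, Ndufaf6, had 7.33, 8.495 and 10.1 CPM in controls and 5.47, 6.97 and 8.12 in knockouts, a log2 fold change of -0.28 (SE 0.11, edgeR adjusted p = 0.30). Ndufaf7, a methyltransferase and the assembly factor with the highest level per length, had -0.08 (SE 0.068).

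Complex III had all 8 nuclear members below 0, and 2 of 8 lower at an unadjusted edgeR p under 0.05, against 51.3% and 7.25% of all genes. Uqcrh, the small hinge protein beside cytochrome c1, had 38.4, 47.6 and 54.9 CPM in controls and 36.7, 37.1 and 43.5 in knockouts, a log2 fold change of -0.28 (SE 0.081, edgeR adjusted p = 0.19). Its controls 5 and 6, from samples 4301 to 4307, lay within the knockout range and the other 4 above it. Uqcrfs1, the Rieske iron-sulphur protein, had -0.16 (SE 0.065) and was lower chiefly in 4301 to 4307, at -0.365, against -0.002 and 0.129 in the other runs. The core proteins Uqcrc1 and Uqcrc2 had -0.06 (SE 0.071) and -0.05 (SE 0.061). Cyc1, the cytochrome c1 subunit, whose symbol lies outside the families above, had a log2 fold change of -0.15 (SE 0.062, edgeR adjusted p = 0.34).

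In complex IV all 15 nuclear members had a negative fold change. Cox4i1, the subunit through which ATP is known to restrain the enzyme, had 178, 208.5 and 240.1 CPM in controls and 169, 177 and 209 in knockouts, a log2 fold change of -0.20 (SE 0.067, edgeR adjusted p = 0.23). Ndufa4, once assigned to complex I, had -0.21 (SE 0.079), and Cox8a, the most abundant nuclear member of the complex per length, had -0.17 (SE 0.089). The common isoforms Cox6a1, Cox6b1 and Cox7a2 had -0.20, -0.14 and -0.24, and the related gene Cox7a2l had -0.14. Of the isoforms tied to muscle, testis or low oxygen, Cox4i2, Cox7a1 and Cox8b had mean counts of 9.23, 7.62 and 6.08 and were left out. Cox6b2 and Ndufa4l2 were kept with under 3 CPM in every library.

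The largest fold change of all members, that of the muscle isoform Cox6a2, rested on few reads. It had 0.592, 1.69 and 2.22 CPM in controls and 0.623, 0.824 and 1.33 in knockouts, a log2 fold change of -0.79 (SE 0.28, edgeR adjusted p = 0.25). Of 6 controls, 5 lay above every knockout and control 5 lay below every knockout. The difference was -1.12 and -1.24 in the runs 3283 to 3288 and 3296 to 3300 and 0.463 in 4301 to 4307.

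In complex V all 17 nuclear members were at or below 0, and the 2 with the highest level per length were nearest to it. Atp5b, the catalytic beta subunit and the most abundant nuclear member per length, had 1267, 1309 and 1575 CPM in controls and 1247, 1350 and 1501 in knockouts, with a log2 fold change of -0.00 (SE 0.062). Under other settings its sign changed, with values up to 0.079. Atp5a1, the alpha subunit of the same ring, had -0.01 (SE 0.053), while the small head subunit Atp5d had -0.19 (SE 0.055, edgeR adjusted p = 0.20). Atp5f1, a subunit of the stalk that holds the head, had 192, 203.1 and 232 CPM in controls and 170, 179 and 198 in knockouts, with 6 of 7 knockouts below every control. Its log2 fold change was -0.20 (SE 0.049, edgeR adjusted p = 0.14, DESeq2 adjusted p = 0.023).

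The proton-carrying ring subunit c is encoded by Atp5g1, Atp5g2 and Atp5g3, which make the same mature protein. Atp5g3 was the most abundant per length of the 3 at 217 CPM per kb, against 22.4 for Atp5g2 and 20.2 for Atp5g1. These values depend on the transcript taken for each gene, of 723, 731 and 4715 bases in that order. Without division by length the control means were 168.1, 17.8 and 100.6 CPM. Their log2 fold changes were -0.19, -0.23 and -0.15 for Atp5g3, Atp5g2 and Atp5g1. For Atp5g2, 87.4% of its 50-base windows also occur in other annotated transcripts, so its level is uncertain, as are those of Atp5l (84.8%), Cox7c (53.0%) and Atp5o (50.3%). The inhibitor of the enzyme, here under the symbol Atpif1, and the small subunit Usmg5 lie outside the families above and had -0.14 (SE 0.092) and -0.17 (SE 0.11).

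Over all libraries together, fold changes differed by mRNA length, among the nuclear members and among all genes. The 49 nuclear members under 1000 bases had a median log2 fold change of -0.158, the 30 from 1000 to under 2000 bases -0.130, and the 9 of 2000 bases or more -0.007. In the shortest quintile of all genes, 59 to 1586 bases, 74.3% of genes were negative, the median was -0.121 and 18.6% were lower at an unadjusted p under 0.05. In that quintile lay 69 of the 88 nuclear members, with a median of -0.157 and 21 of 69 lower at that p. In the next quintile, 1587 to 2441 bases, the medians were -0.067 for 11 members and -0.004 for all genes. The median deviation of the shortest minus that of the longest quintile was 0.071 ± 0.083 in control libraries and -0.049 ± 0.049 in knockouts, on the log2 scale.

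After lowess trends with mRNA length and GC content were removed from each library, most of the difference among nuclear members was gone. Their median log2 fold change was -0.012, against 0.013 for all genes, with 51 of 88 negative. The mitochondrial median was -0.105, with 10 of 11 negative. At an unadjusted edgeR p under 0.05, 10 of 99 members were lower and 1 higher, against 4.28% of all genes lower, and 0 passed after adjustment. Of the 99 members 61 were negative and 38 positive. Those below 0 included Sdhc at -0.23, Ndufv2 at -0.19, Atp5g1 at -0.16, Atp5f1 at -0.14, mt-Nd1 at -0.13 and Sdhb at -0.11. The sparsely counted Cox6a2 was at -0.63, and Ndufaf4 was at 0.13. By complex, nuclear medians then lay between -0.06 for complex II and 0.00 for complex IV. Removing the trends also takes out any real difference that moves with length.

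**Figure D5:**
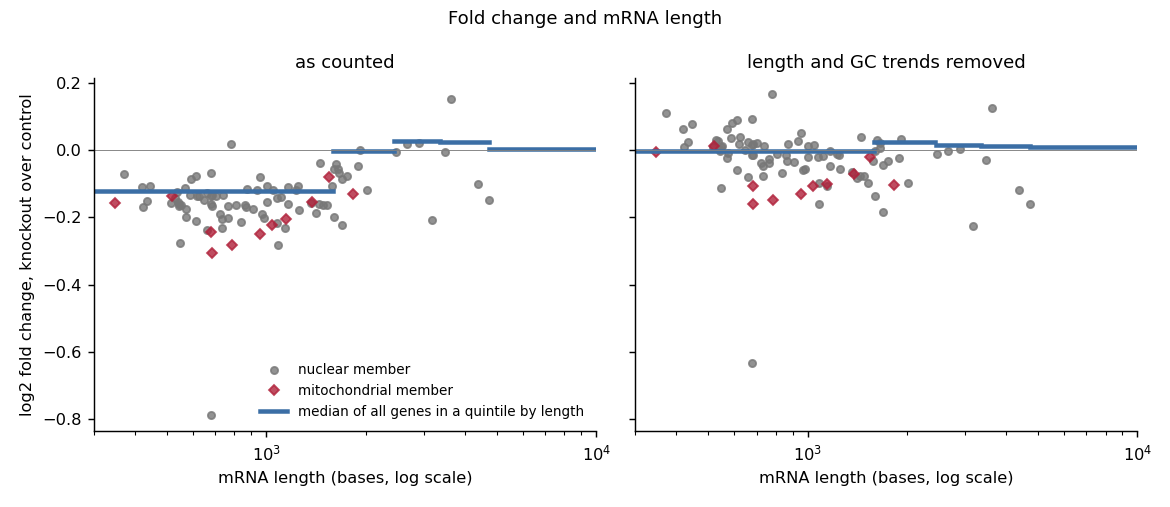
Log2 fold change of members against mRNA length in bases (log axis), as counted and after removal of length and GC trends; circles are nuclear and diamonds mitochondrial members, and lines are medians of all genes in quintiles by length. As counted, the line of the shortest quintile is at -0.121, and after removal at -0.002.

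Libraries of the same group differed from each other by run. In the 3 controls of 3296 to 3300 the nuclear members had median deviations of 0.265, 0.116 and 0.213 from each gene's mean log2 CPM, while both controls of 4301 to 4307 had -0.150 and -0.064. Cox8a, with a short mRNA of 550 bases, had 165, 176.5, 156 and 179 CPM in controls 1 to 4 and 119 and 129 in controls 5 and 6. Atp5b, with 1916 bases, ran the other way, with 1267, 1273, 1317 and 1301 CPM in controls 1 to 4 and 1532 and 1575 in controls 5 and 6. Over all genes, however, the shortest quintile stood highest against the longest in those same controls 5 and 6, at 0.113 and 0.195. The median fold change of nuclear members was -0.094, -0.326 and -0.087 in the 3 runs, and that of mitochondrial members -0.129, -0.251 and -0.326.

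Many of these nuclear genes are known targets of NRF1, a factor that binds the palindrome-like motif CGCATGCGC. The motif was searched on both strands from 250 bases before to 50 after the start in RefSeq promoters (GRCm38.p6), which could be matched for 73 of the 88 nuclear members. It was found in 10 of 73 (13.7%) and in 1.8% of all 27025 promoters. The letters CCGGAAGTG of ETS factors were in 2.7% of members and 2.1% of all promoters, AAGATGGCG of YY1 in 9.6% and 1.5%, and TATAAA in 6.8% and 14.2%. Stretches of 4 members with the NRF1 match in capitals are shown because their fold changes differ in sign or size.
Ndufaf4: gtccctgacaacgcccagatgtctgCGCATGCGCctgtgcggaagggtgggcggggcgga
Atp5g2: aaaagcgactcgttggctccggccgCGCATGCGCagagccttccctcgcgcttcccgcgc
Cox6a1: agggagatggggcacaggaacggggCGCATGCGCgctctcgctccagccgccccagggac
Atp5k: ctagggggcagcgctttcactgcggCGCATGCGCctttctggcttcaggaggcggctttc
The stretches lie at chr4:24897946-24898005 (+), chr15:102671054-102671113 (-), chr5:115349085-115349144 (-) and chr5:108434414-108434473 (-), in that order, upstream of each start. Log2 fold changes were 0.15 for Ndufaf4, -0.23 for Atp5g2, -0.20 for Cox6a1 and -0.07 for Atp5k. The median was -0.136 for the 10 members with the motif and -0.148 for the 63 without it. A match is a stretch of letters and not a measured binding site.

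Other genes of mitochondria were read for comparison, none of which passed edgeR's test after adjustment in any of these lists. The counts below are at an unadjusted p under 0.05, where 7.25% of all genes were lower and 5.23% higher. Of 14 genes of cytochrome c and coenzyme Q, 4 were lower, among them Cycs, the electron carrier between complexes III and IV, at -0.17, and Coq7, a coenzyme Q synthesis enzyme, at -0.23. Of 38 assembly factors outside the families above, 5 were lower, led by Cox18 at -0.30 and Pet100 at -0.37, both of complex IV. Of 22 protein import genes 6 were lower, with a median of -0.100, including the chaperonin Hspe1 at -0.32 and the channel Timm23 at -0.23. Of 21 genes of mitochondrial shape and quality control, 4 were lower and 1 higher, with Fis1, a fission adaptor, at -0.27 and Chchd6, a cristae protein, at -0.26. For these genes the CPM ranges did not overlap, as for 0.274% of all genes, at 52.8 to 59.6 in controls and 42.0 to 51.7 in knockouts for Fis1 and 36.9 to 42.7 and 29.3 to 35.7 for Chchd6. With length and GC trends removed they had log2 fold changes of -0.115 and -0.129. The carriers and porins had 2 lower and 1 higher of 13, including the ATP exchangers Slc25a5 at -0.17 and Slc25a4 at -0.14. With length and GC trends removed, 1 of the 14 cytochrome c and coenzyme Q genes, 2 of the 38 assembly factors, 1 of the 22 import genes, 2 of the 21 shape and quality control genes and 1 of the 13 carriers and porins were lower, against 4.28% of all genes. The medians of these lists then lay between -0.019 and 0.014.

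Lists of regulators and of other metabolic pathways had medians at or above -0.005. Of 14 regulators of mitochondrial biogenesis, 3 were negative, 0 were lower and 2 higher at an unadjusted p under 0.05, with a median of 0.066. These were Pprc1, a coactivator, at 0.23 and the deacetylase Sirt1 at 0.20. Of 29 genes of mitochondrial DNA upkeep and transcription, 1 was lower and 2 higher, shares near those of all genes. The higher genes were Fastkd5 at 0.42 and Fastkd2 at 0.18, which process mitochondrial RNA. The 23 genes of the tricarboxylic acid cycle and pyruvate dehydrogenase had a median of 0.009, with 2 lower and 1 higher, among them Suclg1 at -0.21 and Pdha1 at 0.10, and the 17 of glycolysis -0.005, with 3 lower, among them Ldhb at -0.24 and Gapdh at -0.15. Median mRNA lengths were 3534 bases for the biogenesis regulators, 2604 for DNA upkeep, 2544 for the tricarboxylic acid cycle and 908 for the oxidative phosphorylation members.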

How the data were processed

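The deposited table holds whole-number read counts per gene, not normalized. GRCm39, the aligner STAR (2.7.10a) and the counter featureCounts (2.0.3) appear in the submitters' processing notes, beside DESeq2 (1.36.0) under R (4.2.0). Which annotation release, strand option and rule for multimapping reads applied is not given in the sources used here. From these counts, symbols, lengths and transcripts were taken by Ensembl identifier from GENCODE M21 on GRCm38, which named 52073 genes (99.7% of counts). Groups were compared in R 4.3.3 with edgeR 4.0.16 (quasi-likelihood, TMM, filterByExpr, Benjamini-Hochberg over 17549 genes, threshold 0.05), with DESeq2 1.42.0, limma-voom (limma 3.58.1) and other settings as alternatives; tests were tried on simulated counts. Trends with length and GC content were removed by lowess (span 0.4), for the 98.5% of genes with both values. All 36 pairs of libraries within a group differed by more than counting noise (chi-square of 2.96 to 18.2 a gene), so each was kept. The removal of the length trend alone and the subset of mitochondrial mRNAs with under 10% shared windows were chosen after seeing the data. The members and lists were chosen with earlier results of these data known. Named genes were all mitochondrial and complex II members, those with the smallest p and the highest level per length in each complex, tissue isoforms, members called by either tool, and up to 2 genes per other list; Uqcrc2, Atp5a1, Atp5g1, Atp5l, Atp5k, Atp5g2, Atp5o and Cox7c were added after their values were seen.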

Additional observations from a re-analysis of the deposited data

Results flagged for a closer look

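Among 86 groups of values examined, 9 had a sample far from the others by Dixon's criterion, which chance alone passes in about 1 of 20 groups. In knockout replicate 4, 6 members stood above all other knockouts: Ndufb10 at 69.4 CPM (others 51.3 to 55.0), Ndufa4 at 137.8 (107.8 to 117.1), Atp5g3 at 166.7 (135.7 to 149.0), Cox6a1 at 140.5 (100.5 to 114.6), Cox6b1 at 110.7 (72.7 to 89.1) and Cox7a2 at 72.6 (55.1 to 62.3). In that library the median deviation of all nuclear members was 0.136, the highest of the knockouts. In knockout replicate 6, Uqcrfs1 was at 103.4 CPM (78.8 to 88.6) and Atp5f1 at 197.9 (169.8 to 181.2). In control replicate 3 the log2 ratio of mitochondrial over nuclear counts was 0.419 (0.550 to 0.616 in the other controls). No cause was tested.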

How the results depend on the processing

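No paired analysis was possible because the groups share no replicate numbers in the labels. Over all genes, 4 passed; the count was 181 with DESeq2, 66 without the count filter, 1 at a mean count of at least 50, 78 with the choroid plexus score, and 3 to 80 when each library was left out, with 80 without control replicate 1 and 7 without knockout replicate 3. Of the members, 5 passed with DESeq2 and 1 with the choroid plexus score. The 35 members lower at an unadjusted p under 0.05 became 59 without samples 4301 to 4307, 10 with length and GC trends removed, 8 with the length trend alone removed, and 23 to 53 when each library was left out. With length and GC trends removed, 38 of the 99 members were positive, against 4 as counted. Settings were compared for 40 named members, and the sign changes that follow are among those. With length and GC trends removed the changed values were mt-Nd6 at 0.011, Ndufs1 at -0.002, Ndufv1 at 0.005, Uqcrc1 at 0.020, Cox8a at 0.012, Atp5b at 0.033, Cox6b1 at 0.017, Cox6b2 at 0.036 and Ndufa4l2 at 0.026. With the length trend alone removed these were mt-Nd3 at 0.001, mt-Nd6 at 0.022, Uqcrc1 at 0.006, Atp5b at 0.031, Cox6b1 at 0.017, Cox6b2 at 0.025 and Ndufa4l2 at 0.009. With the run as a term Ndufv1 was at 0.054, Uqcrc1 at 0.045 and Atp5b at 0.078. Without samples 4301 to 4307 Ndufv1 was at 0.019, Ndufaf7 at 0.023, Uqcrc1 at 0.061, Atp5b at 0.079 and Cox6b2 at 0.196. With the myelin score Ndufs1 was at -0.002, Ndufv1 at 0.027, Uqcrc1 at 0.027 and Atp5b at 0.059. Atp5b was also at 0.008 with DESeq2, RLE factors, no filter and the choroid plexus score, at 0.022 with limma-voom, 0.006 with scaling without mitochondrial genes and 0.002 at a mean count of at least 50. Leaving out each library gave -0.022 to 0.049 for Atp5b and -0.372 to 0.018 for Cox6b2. The causes were not tested.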
